A study of Mus musculus with 4 samples.

Results

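The pharyngeal and foregut epithelium of E10.5 mouse hearts was examined in single-cell libraries of wild-type (Wt) and homozygous Cyp51 I383V (Ho) embryos. Its cells were chosen by UMI counts, where a UMI (unique molecular identifier) marks 1 captured mRNA molecule. A cell was kept with 500 to 6000 genes, 2000 to 50000 UMIs and at most 20% of its UMIs on mitochondrial genes. It then had to hold at least 2 UMIs of Epcam, 0 of the thyroid genes Pax8 and Foxe1, at most 1 of the uroplakins Upk3b and Upk1b, which mark epicardium, and fewer than 5 UMIs of Tnnt2 per 10000. This left 531 of 28025 kept cells, of which the Wt libraries held 310 (Wt1) and 26 (Wt2) and the Ho libraries 2 (Ho1) and 193 (Ho2). The cells were further divided into Shh-positive, with at least 1 UMI of Shh, and Shh-zero.

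Each genotype had 2 libraries, made from dissociated E10.5 hearts of the C57BL/6J strain, with no treatment beyond the allele. The Ho embryos carried on both alleles an isoleucine to valine change at residue 383 of the lanosterol demethylase Cyp51, which CRISPR/Cas9 had placed in the germline, so that every cell of the embryo bore it, and the Wt embryos carried neither allele. How many hearts entered a library was not given in the sources used here, so no p-value can be read as a spread between embryos. Xist, the RNA of the silenced X in female cells, was counted 31705 times in the kept cells of Ho1. The count was 4 in Wt1, 4 in Wt2 and 1 in Ho2, so any difference of Ho1 cannot be told apart from one of sex. Of all deposited barcodes 134 occurred in more than 1 library, and no barcode was an epithelial cell in more than 1.

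The pharyngeal endoderm lines the throat of the embryo just behind the outflow tract and folds into pouches, from which the thymus, the parathyroids and other glands arise. Pax1, Pax9, Tbx1 and the growth factor Fgf8 are known for their roles in the pouches. Farther back, the ventral foregut forms the trachea and the lung buds, where Nkx2-1, Foxa2, Sox9 and Wnt7b are active. Both epithelia lie next to the cells that build the heart's arterial and venous poles and send them signals, among them sonic hedgehog (Shh), a ligand that carries a covalent cholesterol and binds the receptor Ptch1 on the receiving cell.

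The epithelial label was checked against genes that the choice of cells had not used. In Wt1, Krt18, a simple-epithelium keratin, was found in 89.0% of the 310 cells, and Cldn7, a tight junction claudin, in 76.1%. In Ho2 these shares were 95.9% and 89.6% of 193 cells. After each cell was thinned to 2000 UMIs, Krt18 was left in 60.3% and 71.5% of the cells and Cldn7 in 37.1% and 45.6%. In cardiomyocyte cells, here cells with at least 20 UMIs of Tnnt2 per 10000 and 0 of Epcam, Cldn7 was found in 2.42% of 1282 cells in Wt1 and 2.47% of 2025 in Ho2. Krt18 was found in 39.5% and 49.5% of them, and it therefore separated the epithelium less cleanly. The median depth was 12100 UMIs in the epithelial cells of Wt1 and 14881 in those of Ho2, against 14968.5 and 19252 in the cardiomyocyte cells.
Lists of other cell types were summed without the genes that the choice of cells had limited. The cardiomyocyte list of 13 genes without Tnnt2, none at 0 UMIs, summed to 437 CPM (counts scaled to a common total of 1000000 UMIs) in Wt1 and 561 in Ho2, with Myl7 contributing the most UMIs, against 70032 and 69820 CPM in the cardiomyocyte cells. Of the surface ectoderm list, Krt14 was at 0 in both libraries, Trp63 had 23 and 10 UMIs and Krt5 3 and 10. Wnt6 of the same list was found in 26.8% of the Wt1 cells and 14.0% of the Ho2 cells, against 0.156% and 0% of the cardiomyocyte cells. Tfap2a was found in 8.39% and 1.04% of the epithelial cells, against 0.546% and 0.148%. Of 4 notochord genes 2 were at 0 in each library, and of the germ cell genes Dppa3 had 0 UMIs in both and Nanos3 36 and 32. Nanos3 was found in 10.3% and 13.5% of the epithelial cells, against 2.73% and 5.58% of the cardiomyocyte cells. Macrophage genes summed to 4 UMIs in Wt1 and 1 in Ho2. In Wt1 and Ho2 the endothelial list summed to 156 and 92.4 CPM, with Egfl7 contributing the most UMIs, the neural crest list to 31.3 and 46.5, the epicardial list without the uroplakins to 48.0 and 53.4, the erythroid list to 14.0 and 17.6 and the thyroid list to 0.985 and 1.57. Placode and neural genes summed to 52.7 and 15.4 CPM, against 6.84 and 8.38 in the cardiomyocyte cells. Neurog2 contributed the most UMIs of that list in Wt1 and Six4 in Ho2. Surface ectoderm genes summed to 95.3 and 43.7 CPM, with Wnt6 contributing the most UMIs. Germ cell genes summed to 113 and 72.6 CPM, with Ifitm3, which other tissues express too, contributing the most UMIs. Whether some of the cells were placode or surface ectoderm was not tested. The mesenchymal list of 10 genes, none at 0 and with Vim contributing the most UMIs, reached 594 CPM in Wt1 and 456 in Ho2. It lay higher in the cells with exactly 2 UMIs of Epcam, at 1427 and 991 CPM, than in the cells with more than 5, at 351 and 405 CPM. Scrublet, a doublet caller, marked 18 Wt1 and 2 Wt2 cells among these, and 1 Ho1 and 5 Ho2 cells.

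The number of cells that met the limits differed more between libraries of 1 genotype than between genotypes. These cells made up 3.74% of the kept cells in Wt1 (exact 95% binomial interval 3.34% to 4.17%, which covers counting error only) and 0.380% in Wt2. Those of Wt2 were poor in junction genes (Cldn7 at 27.8 CPM, against 258 in Wt1), 18 of the 26 held exactly 2 UMIs of Epcam, and Cldn7 was at 0 in the 2 cells of Ho1, so the share counts cells by the limits alone. In Ho1 the share was 0.0288% (0.00349% to 0.104%) and in Ho2 3.23% (2.80% to 3.71%). The mean was 2.06% ± 2.38 (SD, n = 2) in Wt and 1.63% ± 2.27 (SD, n = 2) in Ho, a difference of -0.43 percentage points. An exact permutation test over libraries, two-sided, returned p = 0.667, and 2 libraries against 2 cannot go below 0.333. The highest library of each genotype lay above the lowest library of the other, and the direction turned without Wt1 (1.25 points) or without Ho1 (1.17 points). Cells that met every limit except that they held Pax8 or Foxe1 numbered 180, 165, 0 and 80 in Wt1, Wt2, Ho1 and Ho2, so Ho1 held 0 cells of that thyroid side as well.
The limit on Epcam, an adhesion molecule of epithelia, set which cells entered. The median Epcam count was 9 UMIs (Wt1), 2 (Wt2), 5.5 (Ho1) and 13 (Ho2). Exactly 2 UMIs were held by 52, 18, 1 and 13 cells, and 259, 76, 31 and 94 cells lay just outside with 1 UMI. In the cells just outside, 27 junction and keratin genes without Epcam summed to 208 CPM in Wt1 and 160 in Ho2, against 324 and 348 CPM in cardiomyocyte cells. They summed to 583 and 433 CPM in the cells with exactly 2 UMIs and to 2574 and 3179 CPM in the cells with more than 5. Shh had 0 UMIs in all of the cells just outside, which allows a share of cells with a UMI of Shh of up to 1.16% in Wt1 and 3.19% in Ho2.

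**Figure D1:**
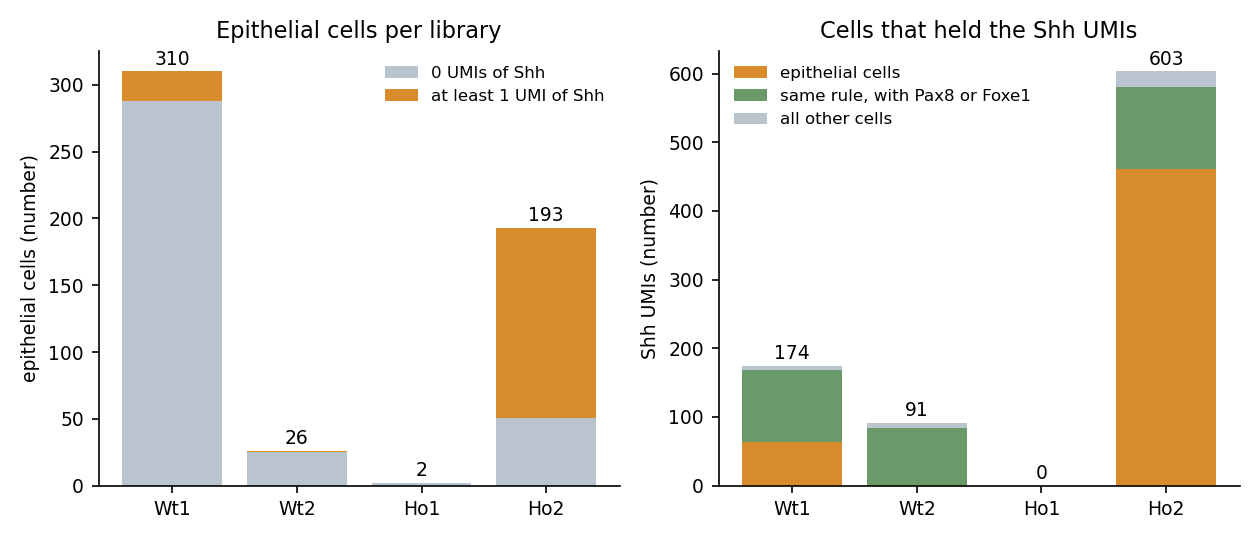
Epithelial cells in each library (left, number of cells, split by whether a cell held a UMI of Shh) and the Shh UMIs counted in all kept cells of each library (right, number of UMIs, split by the cells that held them). Wt1 with 310 cells and Ho2 with 193 hold nearly all epithelial cells, and Shh-positive cells number 22 in Wt1 and 142 in Ho2.

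Shh, on chromosome 5 (GRCm38, 28456815 to 28467256, minus strand), was counted in epithelium and almost nowhere else. The Wt libraries totalled 174 UMIs (Wt1) and 91 (Wt2), and the Ho libraries 0 (Ho1) and 603 (Ho2). Cells with 0 UMIs of Epcam held 1 of these in Wt1, 1 in Wt2 and 6 in Ho2, so 99.4%, 98.9% and 99.0% of the Shh UMIs lay in cells with Epcam. The epithelial cells described here held 63 UMIs in Wt1 (36.2% of the library, 29.1% to 43.8%), 1 in Wt2 (1.10%) and 461 in Ho2 (76.5%, 72.9% to 79.8%). The cells set apart by Pax8 or Foxe1 held 106, 83 and 120. In Ho1 the 0 UMIs of Shh stood against 124739258 UMIs of all kept cells, a depth that allows up to 0.0241 CPM. Ho1 had 2 cells that met the limits, and fewer cells of a type cannot be told apart from less Shh mRNA by its library total.
Shh-positive cells were 22 of 310 in Wt1 (7.10%, exact 95% binomial interval 4.501% to 10.55%), 1 of 26 in Wt2, 0 of 2 in Ho1 and 142 of 193 in Ho2 (73.6%, 66.8% to 79.6%). With every cell thinned to 2000 UMIs the shares were 2.26% in Wt1 and 27.98% in Ho2, and with 5000 UMIs, which left out 18 cells of Wt1 and 1 of Ho2, they were 6.16% and 46.9%. Cardiomyocyte cells with a UMI of Shh numbered 0 of 1282 in Wt1, which allows a share of cells with a UMI of up to 0.234%, and were 0.0494% of 2025 in Ho2. Ho2 thus held the larger share of Shh-positive epithelium at every depth. Within the Shh-positive cells, where the class itself requires a UMI of Shh in each cell, the level was 214 CPM in Wt1 and 195 CPM in Ho2. Only these 2 libraries held at least 50 epithelial cells. A comparison of Ho2 with Wt1 therefore has 1 library a genotype and no test, and genotype, library and the piece of tissue that was sampled cannot be told apart in it.

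The epithelial cells of Wt1 were richer in genes of pharyngeal pouches, and those of Ho2 in genes of ventral foregut and lung bud. Of 8689 genes with at least 50 UMIs over both libraries, 271 (3.12%) were at least 2 times higher in Ho2 and 342 (3.94%) at least 2 times lower, with a median log2 ratio of -0.01. Of 14 pouch genes 8 reached that depth, and 0 were at least 2 times higher and 7 lower, with a median of -2.86. Summed, the 14 genes stood at 626 CPM in Wt1 and 154 in Ho2. In the Pax8 or Foxe1 cells their sums were 500 and 366 CPM, a smaller contrast.
Fgf8 had 500 UMIs in Wt1 (123 CPM, 113 to 134) and 0 in Ho2, which allows a UMI in up to 1.55% of its 193 cells. It was found in 39.4% of the Wt1 cells, against 6.24% and 6.67% of the cardiomyocyte cells of Wt1 and Ho2. Pax1 had 97 UMIs (23.9 CPM) in Wt1 and 0 in Ho2. Pax9 had 331 UMIs (81.5 CPM) in Wt1 and 6 (1.88 CPM) in Ho2, a log2 ratio of -5.41 (95% counting interval -6.87 to -4.27). Tbx1, a T-box factor of the pouches, stood at 34.7 CPM in Wt1 and 5.97 CPM in Ho2, and the cofactor Eya1 at 26.3 and 2.83 CPM. Ripply3, a repressor that acts on Tbx1, stood at 94.3 and 24.8 CPM. Isl1, with the most UMIs of this list, was the tested gene that did not reach 2-fold (207 and 110 CPM, log2 ratio -0.89). Single cells showed the same contrast. Pax9 was found in 40.0% of the Wt1 cells and 2.59% of the Ho2 cells, and in 0.0780% and 0% of the cardiomyocyte cells. After thinning to 2000 UMIs Pax9 was left in 14.2% and 0%.
Of 15 foregut and lung bud genes 10 were deep enough, of which 8 were at least 2 times higher in Ho2 and 0 lower, with a median log2 ratio of 1.91. Summed, the 15 genes stood at 441 CPM in Wt1 and 1014 in Ho2. In the Pax8 or Foxe1 cells their sums were 478 and 670 CPM, again a smaller contrast. Nkx2-1, the factor that marks lung and thyroid fields, had 16 UMIs (3.94 CPM) in Wt1 and 330 (104 CPM) in Ho2, a log2 ratio of 4.74 (4.02 to 5.57). It was found in 3.87% of the Wt1 cells and 68.4% of the Ho2 cells, and in 1.29% and 18.7% after thinning to 2000 UMIs, against 0.0780% and 0.0988% of the cardiomyocyte cells. Wnt7b, a Wnt ligand of the lung epithelium, had 10 UMIs (2.46 CPM) in Wt1 and 255 (80.1 CPM) in Ho2. Etv5, a target of FGF signalling, stood at 19.0 and 118 CPM, and Sox9, which marks the tips of the lung buds, at 15.3 and 59.7 CPM. The Iroquois factor Irx1 stood at 31.3 and 136 CPM. Sox2, a factor of the dorsal foregut, went the other way without reaching 2-fold (42.1 and 27.6 CPM, log2 ratio -0.58), and Id2 had the most UMIs of the list (226 and 278 CPM). Among 9 endoderm factors, of which 4 were deep enough, Foxa2 stood at 3.94 CPM in Wt1 and 42.4 in Ho2, Foxa1 at 2.71 and 25.1, and Gata6 at 18.5 and 58.1. Prdm1, the remaining gene of these, stood at 18.5 and 0.942 CPM.

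**Figure D2:**
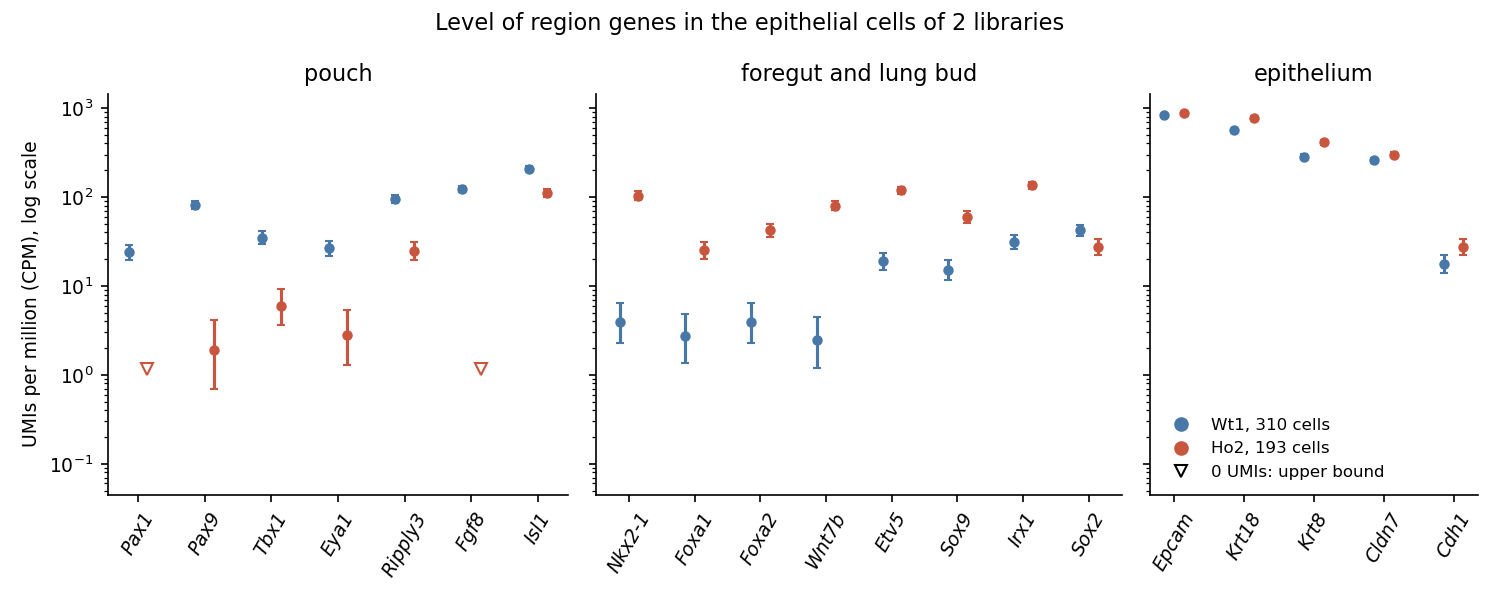
Level of pouch, foregut and lung bud, and epithelial genes in the epithelial cells of Wt1 (blue) and Ho2 (red), in CPM on a log axis, with bars for exact 95% Poisson intervals that cover counting error only. Open triangles give the upper bound for genes with 0 UMIs. The pouch genes lie higher in Wt1 and most foregut genes in Ho2, whereas the points of Epcam, Krt18, Krt8 and Cldn7 lie close together.

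Pax9 and Nkx2-1 lie 154.858 kb apart on chromosome 12 in GENCODE M21, with Nkx2-9 (56611389 to 56613284) between them, and Pax9 was higher in Wt1 and Nkx2-1 in Ho2. Pax9 lies on the plus strand (GRCm38, 56691767 to 56712822) and Nkx2-1 on the minus strand (56531958 to 56536908). Their start regions are shown because genes of 1 stretch of the chromosome took opposite sides. Each sequence runs from 250 bases before to 50 bases after a start site in RefSeq (GRCm38.p6), which had windows for 9 of 12 genes looked for, and capitals mark letters that match CAAGTG, the core of NKX2 sites, or its reverse complement CACTTG.
Nkx2-1, chr12:56536859-56537158, minus strand: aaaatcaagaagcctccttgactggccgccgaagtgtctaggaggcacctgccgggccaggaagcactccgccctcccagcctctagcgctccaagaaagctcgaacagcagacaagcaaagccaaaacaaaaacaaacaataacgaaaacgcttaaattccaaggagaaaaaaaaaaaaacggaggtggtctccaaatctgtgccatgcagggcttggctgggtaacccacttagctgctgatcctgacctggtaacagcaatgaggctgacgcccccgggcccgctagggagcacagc
Pax9, chr12:56695221-56695520, plus strand: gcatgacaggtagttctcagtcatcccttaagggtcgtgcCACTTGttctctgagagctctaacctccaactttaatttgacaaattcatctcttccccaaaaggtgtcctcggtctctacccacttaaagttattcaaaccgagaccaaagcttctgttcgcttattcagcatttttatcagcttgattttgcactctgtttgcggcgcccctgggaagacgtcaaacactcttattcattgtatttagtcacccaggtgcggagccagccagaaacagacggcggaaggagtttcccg
The Pax9 window held 1 such match, 210 bases before the start site, and the Nkx2-1 window held 0, where 13.6% of 32851 windows of this length held at least 1 on either strand. The forkhead letters TGTTTAC (3.65% of windows) and the GLI letters GACCACCC (0.807%) were found in neither window, and likewise the letters TATAAA (13.6%) and CCAAT (37.4%), all searched on both strands. These are matches of letters only. The GC content was 53.7% for Nkx2-1 and 47.0% for Pax9, against a median of 52.7% over all windows.

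Whether the 2 programmes met in single cells was counted with Pax1, Pax9, Tbx1 and Fgf8 for the pouch and Foxa1, Foxa2, Nkx2-1 and Wnt7b for the foregut, sets chosen after their values were seen. In Wt1, 195 of 310 cells held pouch genes alone, 17 foregut genes alone, 14 both and 84 neither. In Ho2, 4 of 193 cells held pouch genes alone, 154 foregut genes alone, 15 both and 20 neither. After thinning to 2000 UMIs no cell held both, and the cells with neither numbered 201 and 120. Shh-positive cells were counted in each of these groups. Of the 17 Wt1 cells with foregut genes alone 12 were Shh-positive, and of the 195 with pouch genes alone 1 was, as were 1 of the 14 with both and 8 of the 84 with neither. Of the 154 Ho2 cells with foregut genes alone 127 were Shh-positive, and of the 4 with pouch genes alone 0 were, as were 10 of the 15 with both and 5 of the 20 with neither. Within Shh-positive cells the libraries lay nearer to each other than over all cells in Foxa2 (40.7 CPM in Wt1 and 48.7 in Ho2), Foxa1 (23.7 and 28.4), Nkx2-1 (30.5 and 124) and Wnt7b (10.2 and 84.7). The Shh-positive sum of Wt1 held only 294786 UMIs, so its levels rest on few UMIs and these 4 genes cannot be ranked. Sox9 had 0 UMIs in the 22 Shh-positive cells of Wt1 and 61.0 CPM in those of Ho2. Over the 10 foregut and lung bud genes deep enough the median log2 ratio was 2.08 in Shh-positive and 1.46 in Shh-zero cells, against 1.91 over all cells. For the 4 endoderm factors deep enough these medians were 0.33, 2.81 and 2.46. Sums under 3 UMIs, such as Sox9 in the Shh-positive cells of Wt1, were set to 3 for these ratios. The Shh-positive medians are therefore rough.
The 10 genes with the largest ratios on each side were mostly genes outside these lists. Those higher in Ho2 included the surfactant gene Sftpa1 (0 UMIs in Wt1 and 121 in Ho2), the surfactant-associated genes Sfta2 (1 and 86) and Sfta3-ps (4 and 157) and the phospholipase Pla2g1b (1 and 122). Sfta2 was spread over 68 of the 193 cells. Mia, H2-Q2 and Akr1c19 had 110, 228 and 95 UMIs in Ho2 and 2, 7 and 2 in Wt1, where H2-Q2 belongs to a family of similar genes and its counts are uncertain. Afp, an albumin relative of liver and yolk sac, was different, since 116 of its 120 UMIs in Ho2 came from 1 cell. The liver and blood plasma protein Ttr had 87 UMIs, of which 42 came from 1 cell. Of 4 hepatic and pancreatic genes deep enough all 4 were at least 2 times higher in Ho2, against 3.12% of all genes, but 82 of the 92 UMIs of Apoa2 and 29 of the 41 of Apoa1 also came from 1 cell each. In the Shh-positive cells of Wt1 Apoa1 had 0 UMIs and Apoa2 1. Their log2 ratios in these cells (-1.19 and -1.34) came from a floor of 3 UMIs a library and give no direction. In Ho2 Apoa1 and Apoa2 were found in 7.04% and 6.34% of the Shh-positive cells. Of all 271 higher genes 7 had 50% or more of their Ho2 UMIs in 1 cell, and of the 342 lower genes 2 had in Wt1.
The lower genes in Ho2 included, besides Fgf8 and Pax9, the retinal dehydrogenase Aldh1a1 (242 UMIs in Wt1 and 3 in Ho2), the chemokine Cxcl14 (186 and 0), the matrix protein Lum (143 and 0), the cofactor Vgll2 (155 and 2) and the secreted BMP and Wnt antagonist Sostdc1 (379 and 10). Ctxn3 had 209 and 0 UMIs and Foxi2, a forkhead factor, 151 and 0. The antisense transcript AI646519, on chromosome 2 at 147357454 to 147362793 and overlapping the start of Pax1 on the other strand, had 156 and 0.

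Of 27 junction and keratin genes, Epcam left out, 24 were deep enough, of which 5 were at least 2 times higher in Ho2 and 1 lower, against 3.12% and 3.94% of all genes, with a median log2 ratio of 0.23. The other genes of the list differed by less than 2-fold. Cldn7 stood at 258 CPM in Wt1 and 298 in Ho2, and Epcam, on which the cells were chosen, at 837 and 876. Krt18 stood at 563 and 782 CPM and its partner Krt8 at 284 and 411. The keratin Krt7 was higher in Ho2 (76.8 and 209 CPM, log2 ratio 1.47, 1.27 to 1.66), as was the polarity gene Crb3 (62.5 and 124 CPM). Esrp2, a splicing regulator of epithelia, Marveld3 and Lama1 were higher on 17, 20 and 20 UMIs in Wt1. Within Shh-positive cells Krt7 stood at 309 CPM in Wt1 and 241 in Ho2, so its higher level in Ho2 was not seen there.

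Of the hedgehog genes with at least 50 UMIs, Shh was the one that was at least 2 times higher in Ho2, and 4 were lower. Shh itself, which the choice of classes used, stood at 15.5 CPM in Wt1, 2.78 in Wt2 and 145 in Ho2. Among 8 genes for the ligands and their release 3 were deep enough, of which Shh was at least 2 times higher in Ho2 and Scube3, a secreted protein that helps the ligand off the cell, was lower (21.2 and 6.28 CPM). Ihh, the related ligand, had 3 UMIs in Wt1 and 22 in Ho2, below that depth. Of 13 genes of reception and response 6 were deep enough, with 0 higher and 3 lower, against 3.12% and 3.94% of all genes. The coreceptor Gas1 stood at 33.7 CPM in Wt1 and 2.83 in Ho2 (log2 ratio -3.55, -4.71 to -2.59), the coreceptor Cdon at 11.8 and 4.08, and Sufu, which restrains the Gli factors, at 16.5 and 7.85. The receptor and target Ptch1 stood at 42.8 CPM in Wt1, 44.5 in Wt2 and 44.3 in Ho2, a log2 ratio of 0.07 (-0.26 to 0.40) between Ho2 and Wt1. Smo, the signal transducer, stood at 51.9 and 45.6 CPM and Gli3 at 23.1 and 19.2. Gli1, a direct target, had 18 UMIs in Wt1 and 11 in Ho2, too few for a ratio. In Ho2 the Shh-positive cells held 37.3 CPM of Ptch1 (29.9 to 45.9) and the Shh-zero cells 64.5 (48.3 to 84.4). In Wt1 these levels were 40.7 (21.03 to 71.11) and 43.0 (36.6 to 50.1).
Of 35 genes of secreted signals 22 were deep enough, of which 2 were at least 2 times higher in Ho2 and 13 lower, against 3.12% and 3.94% of all genes, with a median log2 ratio of -1.15. Within Shh-positive cells alone the median was -0.26 and 9 of the 22 lay above 0. Besides Fgf8 and Cxcl14 the lower genes included Edn1, the endothelin of the arches (51.9 CPM in Wt1 and 5.65 in Ho2), Fgf9 (17.5 and 3.14), the axon guidance factor Slit2 (46.3 and 9.11) and the Wnt antagonist Sfrp1 (51.7 and 14.1). Wnt7b and Wnt11 (2.95 and 11.9 CPM) were the higher genes, and Igf2, with the most UMIs of the list, stood at 454 and 374 CPM. Among 12 FGF receptors and feedback genes, 8 deep enough, the 2 at least 2 times higher were Etv5 and Fgfr2, the receptor of epithelia (27.6 and 71.6 CPM), and 0 were lower, beside the same shares of all genes.

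Most sterol synthesis genes were slightly higher in the Ho2 epithelium, and few reached 2-fold. All 25 genes of the list, which runs from acetyl-CoA to cholesterol with its regulators, were deep enough, and 21 had a ratio above 0, with a median log2 ratio of 0.43 against -0.01 over all genes. Of these, 2 were at least 2 times higher and 0 lower, against 3.12% and 3.94% of all genes. The median of the list was 0.64 in Shh-positive and 0.19 in Shh-zero cells. Sqle, the squalene epoxidase, stood at 29.8 CPM in Wt1 (24.7 to 35.6), 30.6 in Wt2 and 63.8 in Ho2 (55.3 to 73.2). Cyp51, which carries the allele, stood at 80.5 CPM in Wt1 (72.0 to 89.7), 91.7 in Wt2, 58.4 in Ho1 and 74.5 in Ho2 (65.3 to 84.6). Both Ho values lay below both Wt values, but the intervals of Wt1 and Ho2 overlapped. The Ho1 value came from 2 cells and the Wt2 value from 26. These UMIs count transcripts of either allele. Fdps, with the most UMIs of the list, stood at 333 and 432 CPM. Summed over the list the level was 1336 CPM in Wt1 and 1725 in Ho2. In the cardiomyocyte cells of the same libraries it was 1093 and 1222 CPM and in the Pax8 or Foxe1 cells 1088 and 1251, so Ho2 lay above Wt1 in these as well. Ho2 lay below Wt1 in the cells with exactly 2 UMIs of Epcam (1564 CPM in Wt1 and 1440 in Ho2) and with 1 UMI (1299 and 1246). With more than 5 UMIs of Epcam the sums were 1353 and 1818 CPM.
Glycolysis and hypoxia genes, 17 deep enough of 22, had a median log2 ratio of 0.60, with 2 at least 2 times higher (Hk2 and Pdk1) and 1 lower (Hk1), against 3.12% and 3.94% of all genes. Ldha, lactate dehydrogenase A, stood at 1196 CPM in Wt1 and 2266 in Ho2 (log2 ratio 0.95). In the cardiomyocyte cells the sum of this list was 18423 and 18920 CPM, against 9688 and 13603 CPM in the epithelium and 7629 and 9013 in the Pax8 or Foxe1 cells, so Ho2 lay above Wt1 in these as well. S phase and G2/M phase genes, 25 and 30 tested, had medians of 0.12 and -0.15 with 0 past 2-fold in either direction. The primary cilium list had 0 of 25 past 2-fold and a median of -0.01. The immediate early and heat shock list, which rises when tissue is dissociated, had 0 of 14 past 2-fold and a median of -0.05.

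**Figure D3:**
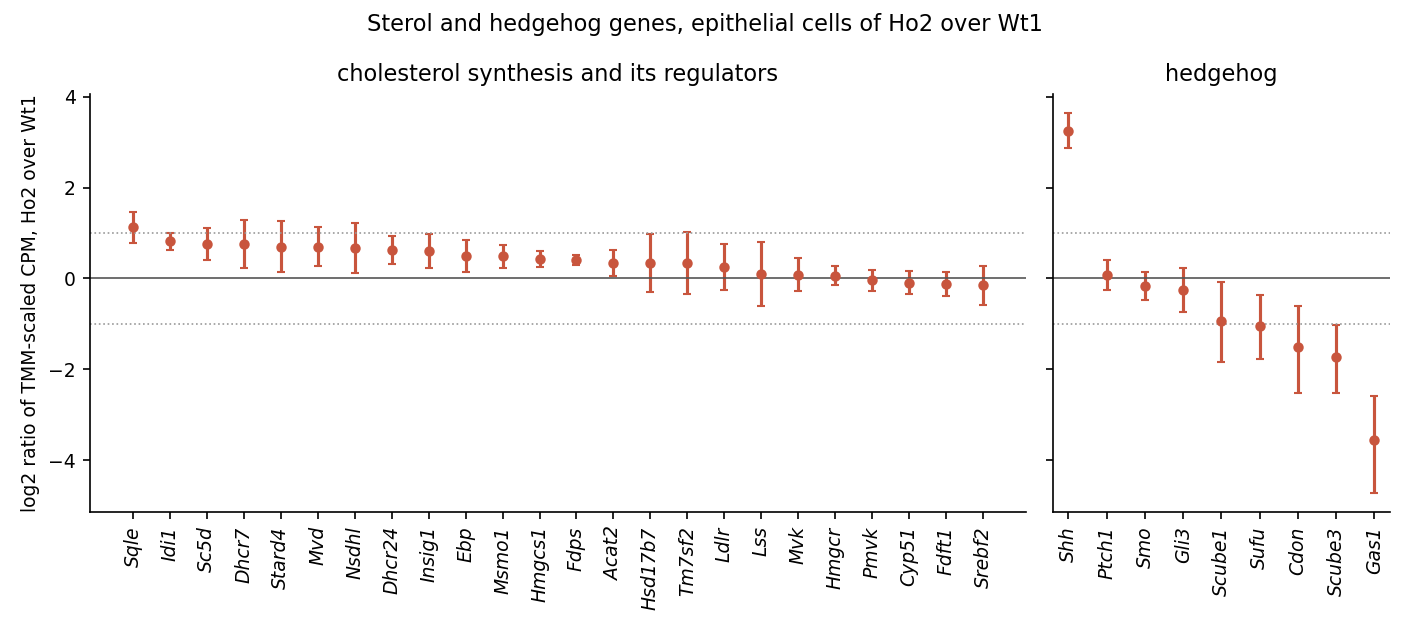
Log2 ratio of Ho2 over Wt1 epithelial cells for 24 of the 25 genes of cholesterol synthesis and its regulators (left) and 9 hedgehog genes (right), each with an exact 95% interval for counting error only. Dotted lines mark 2-fold. Sqle lies above 2-fold on the left, and Shh alone does on the right.

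Shh-positive and Shh-zero cells were compared within libraries, by edgeR's quasi-likelihood test on the summed UMIs of both classes in Wt1 and Ho2 with the library as a block. Shh had made the classes and was left out. The keratins Krt18, Krt8, Krt7 and Krt19 were higher in Shh-positive cells, and Col1a2, Col3a1 and Vim in Shh-zero cells. Of 9200 genes 44 (0.478%) were higher and 57 (0.62%) lower at an adjusted p-value under 0.05. The same sign in both libraries was held by 96 of these 101, a count that calls made on the same sums favour, and by 5098 of all 9200 (55.4%). The 4 sums left 1 residual degree of freedom, so edgeR drew most of each gene's variance from the other genes (14.8 prior degrees of freedom). Its p-values thus do not measure the spread of these 2 libraries alone. The Wt1 sum of Shh-positive cells rested on 22 cells. The number of calls ran from 0 without the library block, where 472 genes had an unadjusted p-value under 0.05, to 264 without doublets, and DESeq2 called 19. The cause of this range was not tested.
Of 25 junction and keratin genes tested besides Epcam, 5 were higher and 0 lower by edgeR, against 0.478% and 0.62% of all genes. DESeq2 called 2 (Krt8 and Krt18), and the median log2 fold change was 0.66. Krt18 stood at 994 CPM in Shh-positive and 529 in Shh-zero cells of Wt1, and at 905 and 429 in Ho2 (log2 fold change 1.02, edgeR adjusted p-value 1.9e-05). Krt8 stood at 587 and 260 CPM in Wt1 and at 475 and 226 in Ho2 (1.14, adjusted p-value 3.1e-05). Krt7 stood at 309 and 58.7 CPM in Wt1 and at 241 and 114 in Ho2 (1.72, adjusted p-value 0.00066). Krt19 and the laminin gene Lama5 were the other genes of the list that rose, by 1.85 and 1.35 on the log2 scale. All of these keratins were higher in Shh-positive cells of both libraries. Cldn7 was at 0.34 (adjusted p-value 0.41).
Among foregut genes Nkx2-1 (1.89, edgeR adjusted p-value 0.021) and Sox2 (1.21, adjusted p-value 0.048) were higher, of 11 tested, against 0.478% of all genes. Foxa2 was at 2.11 (adjusted p-value 0.15) and Foxa1 at 1.82 (0.30). DESeq2 called 0 of these 11 genes and 0 of the pouch genes. Of 4 pouch genes tested Tbx1 fell (edgeR adjusted p-value 0.027), where 0.62% of all genes fell. Tbx1 had 0 UMIs in Shh-positive and 141 in Shh-zero cells of Wt1 and 7 and 12 in Ho2.
Among the genes with the largest rise, Fxyd3, an ion transport regulator, had 20 UMIs in 14 of the 22 Shh-positive cells of Wt1 and 11 UMIs in the 288 Shh-zero cells, and 45 and 4 UMIs in Ho2 (log2 fold change 3.80, edgeR adjusted p-value 0.0025). The carbonic anhydrase Car4 (2.25), the surface gene H2-Q2 (2.19), Mir205hg (2.02), Cd164l2 (1.95) and the matrix gene Dcn (2.87) rose as well. The rise of Dcn came mostly from Wt1, where its log2 ratio was 4.13, against 0.41 in Ho2. Several calls rested on single cells. Of the 45 UMIs of the embryonic globin Hbb-y in Shh-positive cells of Ho2 36 came from 1 cell, and all 32 in Wt1 came from 1 cell. For Tagln, a smooth muscle gene, 598 of 691 UMIs in Ho2 and 64 of 81 in Wt1 came from 1 cell each. Xaf1 had 38 of 40 and Fst 6 of 10 of their Wt1 UMIs in 1 cell. H2-Q2 had 2 of only 4 UMIs of Wt1 in 1 cell, whereas its 209 in Ho2 were spread over 68 cells. Of the 44 higher genes 5 had 50% or more of the UMIs of a Shh-positive sum in 1 cell, and of the 57 lower genes 6 had 50% or more of those of a Shh-zero sum, among them the plasma protein genes Rbp4 (193 of 200 in Ho2) and Trf (55 of 58).
The genes with the largest fall included a chemokine and the Hand factors, which are known from mesenchyme. Cxcl12, a chemokine of mesenchyme, had 3 UMIs in Shh-positive and 377 in Shh-zero cells of Wt1, and 9 and 112 in Ho2 (log2 fold change -4.77, edgeR adjusted p-value 5.9e-06). Hand1, which fell as well, had 0 UMIs in Shh-positive and 58 in Shh-zero cells of Wt1, and 1 and 30 in Ho2. Hand2 and Hand2os1, a transcript that overlaps it on the other strand, fell by 3.33 and 3.58 on the log2 scale. Hand2 was spread over 63 of the 288 Shh-zero cells of Wt1 and 11 of the 51 of Ho2. Lix1, Runx1t1, Rgs5, Col9a1, Gm34030 and Pmp22 were the others of the 10 largest. Of 9 mesenchymal genes tested 3 fell by edgeR (Col1a2, Col3a1 and Vim), against 0.62% of all genes, and of these DESeq2 called Col1a2. With cells of at least 6 UMIs of Epcam alone, an alternative chosen after seeing the data, 22 genes were called, 19 of them among the 101, and Col3a1 and Vim then stood on the other side, at 0.81 (edgeR adjusted p-value 0.97) and 0.72 (0.38). The summed mesenchymal list stood at 377 CPM in Shh-positive and 611 in Shh-zero cells of Wt1, and at 426 and 542 in Ho2, and the median of Epcam was 13 against 9 UMIs and 14.5 against 7. The part of mesenchymal RNA in these calls was not tested.
Of the 25 cholesterol synthesis genes edgeR called 0 between the classes, with a median log2 fold change of 0.09, 1 gene at an unadjusted p-value under 0.05 and 0 called by DESeq2. Of 7 hedgehog reception genes edgeR and DESeq2 called 0, with 1 at an unadjusted p-value under 0.05, and of 25 S phase genes both called 0, with 4 at that level. Of 30 G2/M genes edgeR called 0 higher and 2 lower (Ube2c and Birc5), against 0.478% and 0.62% of all genes. DESeq2 called 0 of the 30, and 12 had an unadjusted edgeR p-value under 0.05, with a median log2 fold change of -0.38.

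**Figure D4:**
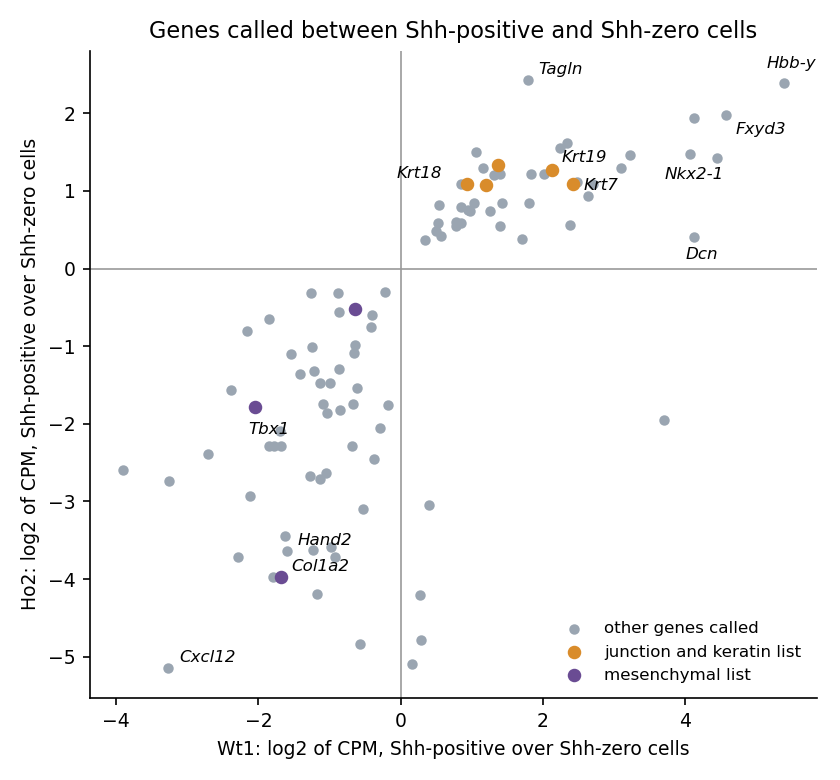
The 101 genes called between Shh-positive and Shh-zero epithelial cells, by the log2 ratio of CPM within Wt1 (horizontal) and within Ho2 (vertical), where sums under 3 UMIs were set to 3. Junction and keratin genes (orange) lie at upper right, and Cxcl12, Hand2 and Col1a2 at lower left. The same sign in both libraries, which calls made on these sums favour, was held by 96 of them and by 55.4% of all genes tested.

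The 26 cells of Wt2 and the 2 of Ho1 were unlike the others. In Wt2 Epcam stood at 222 CPM and Krt18 at 281, against 837 and 563 in Wt1, and Cldn7 at 27.8 against 258. Vim stood at 1852 CPM in these cells, Cxcl12 at 350 and Col3a1 at 250, and 18 of the 26 cells held exactly 2 UMIs of Epcam. Pax1 and Pax9 had 0 UMIs and Nkx2-1 1. The 2 cells of Ho1 held 203 UMIs of Afp and 48 of Apoa2 among 51363 UMIs, and Pax9, Nkx2-1 and Cldn7 were at 0.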

How the data were processed

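Single-cell 3' RNA libraries (10x Genomics) of 2 Wt and 2 Ho heart samples were sequenced, and the authors deposited raw UMI counts per gene and barcode, made with Cell Ranger 6.1.1 against mm10, with Seurat 4.1.0 also named in the submitters' processing notes. The matrices held 10320, 8212, 7999 and 7058 barcodes and 109893733, 117034633, 127018819 and 107377100 UMIs in the order Wt1, Wt2, Ho1, Ho2. The limits on genes, UMIs and mitochondrial share were set as given above, and the doublets that Scrublet marked (scanpy 1.11.5) stayed in. Members, the 27 gene lists and the tests were chosen with earlier results of these data known. UMIs were summed per library, or per library and Shh class. Classes were compared with edgeR 4.0.16 (R 4.3.3; TMM, low-count filter, library block, Benjamini-Hochberg over all genes, adjusted p-value under 0.05). The edgeR fit planned between genotypes could not be made, because only 1 library a genotype held at least 50 epithelial cells. Ho2 and Wt1 were instead compared by ratios of TMM-scaled CPM for genes with at least 50 UMIs over both, with a floor of 3 UMIs a library and exact binomial intervals (scipy 1.17.1). The limits of 50 UMIs and 2-fold were set after the values were seen. CPM in the text is relative to all UMIs of a sum, and intervals and zero limits cover counting error only. Genes were named as those of the rule and its markers, Cyp51, the 10 largest changes in each direction among those called, and list members called or with the most UMIs, with further list members given as values. Some genes that the rule names are not reported here, though counts and sums over lists include them. In the comparison of Ho2 and Wt1, size replaced the test in that rule. On simulated sums of the Shh classes, edgeR recovered 172 of 190 genes changed by 2 on the log2 scale, with 10 unchanged genes called, and 69 of 182 changed by 1, with 3. The simulation gave each gene 1 mean for both libraries and all genes 1 dispersion (0.00707), which is simpler than these data. Error rates in the data themselves were not tested. Alternatives were DESeq2 1.42.0, other scaling, filters, depth and cell limits.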

Additional observations from a re-analysis of the deposited data

How the results depend on the processing

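No paired analysis was possible because only Wt1 and Ho2 held at least 50 epithelial cells, so genotypes shared no 2 replicate numbers. For the same reason DESeq2 and leaving out a library could not be run for Ho2 against Wt1. The difference in the share of epithelial cells, Ho minus Wt, ran from -2.11 to 1.25 points with 1 library left out and turned to 1.25 without Wt1 and 1.17 without Ho1. Thinning lowered the Shh-positive share to 2.26% in Wt1 (2000 UMIs) and to 27.98% (2000 UMIs) and 46.9% (5000 UMIs) in Ho2. Counting all cells with Epcam gave 99.4%, 98.9% and 99.0% of the Shh UMIs in Wt1, Wt2 and Ho2. Of the Shh classes 209 genes were called with no filter, 8 with at least 10 counts in every sum, 0 without the library block, 34 when split after thinning, 264 without doublets, 22 with at least 6 UMIs of Epcam (chosen after seeing the data) and 19 by DESeq2. Between Ho2 and Wt1, 947 genes were higher and 1035 lower with no filter, 395 higher and 74 lower in Shh-positive cells alone, and 142 higher and 428 lower in Shh-zero cells alone. Fold changes between classes turned for Col3a1 (0.81) and Vim (0.72) with at least 6 UMIs of Epcam, and for Hbb-y (-1.66) and Tagln (-3.06) after thinning. For Ttr the value was -1.95 without Wt1 and 3.71 without Ho2. Wt1 had 0 UMIs of Ttr in Shh-positive and 1 in Shh-zero cells, so the 3.71 came from the floor of 3 UMIs and gives no direction. Ratios of Ho2 over Wt1 turned in Shh-positive cells for Car4 (-0.054), Fxyd3 (-1.76), Krt7 (-0.28) and Shh (-0.057). They also turned there for Slit2 (0.072), Vegfa (0.13) and Wnt6 (0.77). For these 3 genes the Wt1 sums lay at or near the floor of 3 UMIs and give no firm direction. For Apoa1 (-1.19) and Apoa2 (-1.34) the sign in Shh-positive cells came from the floor of 3 UMIs, since Wt1 had 0 and 1 UMIs. In Shh-zero cells the ratios turned for Cxcl12 (0.44), Emcn (0.12), Gm34030 (0.14), Hand2 (0.42), Hand2os1 (0.52), Lix1 (0.36), Runx1t1 (0.31) and Tagln (-0.58), and with at least 6 UMIs of Epcam for Tubb3 (0.73). The cause of these changes was not tested. The Shh-positive class of Wt1 rests on 22 cells.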
